A study of Mus musculus with 12 samples.

Results

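Interferon response genes were followed in sorted mouse bone marrow myeloid progenitors. Their list was drawn up with earlier results of these data known, so its shares beside those of all genes are a description. It holds 52 genes, all of which were found among the 33924 genes of the count table. They fall into 28 effectors and sensors of the type I interferon response, 8 GTPases best known as targets of interferon-gamma, 10 genes of the immunoproteasome and of antigen presentation by MHC class I, and 6 regulators of the pathway. A total of 39 members had enough reads to be tested (19 effectors, 7 GTPases, 9 presentation genes and 4 regulators), and 13 did not. The cells were live, lineage-negative, Sca1-negative, c-Kit-positive progenitors from femurs and tibias, and the RNA was sequenced from the 3' end of each transcript, so that a count stands for a transcript whatever its length. The 12 libraries form 4 groups of 3. Controls were Mx+ Wt1+/+ and are labelled WT1 control, and mice with a floxed allele of Wt1 were Mx+ Wt1fl/+ and are labelled WT1 het. Wt1 encodes a transcription factor known from kidney tumours and myeloid leukaemia. Each genotype was taken once from mice labelled old chronic and once from mice labelled young acute. The labels do not say what acute and chronic stand for, and as each is tied to 1 age they cannot be told apart from age. Controls and hets alike carry Mx, which is read here as the Cre transgene driven by the Mx1 promoter, itself switched on by interferon, and the labels name no treatment. The study set each het group against its age-matched control.

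Interferons are secreted proteins that cells release on sensing foreign or misplaced nucleic acid. Type I interferons bind the Ifnar1 and Ifnar2 receptor chains, and the kinases Jak1 and Tyk2 then activate transcription factors, Stat2 and Irf9 among them, that bind a DNA element called ISRE. Interferon-gamma binds Ifngr1 and Ifngr2 and acts mainly through an element called GAS. The induced genes block viral replication, load peptides onto MHC class I and restrain the response itself. In bone marrow, interferons are known to act on blood stem and progenitor cells, and Ly6a, which encodes Sca1, is itself interferon-inducible.

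Library totals ranged from 645460 counts (young control 2) to 9645502 counts (old control 1), and members took 0.471% to 0.999% of them. Levels are CPM, counts relative to the TMM-scaled total of tested genes, so 1 count was worth 0.0916 CPM in old control 1 and 1.70 CPM in young control 2. Progenitor genes were present in every library: Kit, the receptor used in the sort, lay at 96.5 to 291 CPM and Mpo at 1552 to 8476 CPM. Wt1 was barely counted, with 8, 4 and 6 counts in the young controls, 7, 4 and 23 in the young hets, 1, 4 and 2 in the old controls and 3, 2 and 4 in the old hets, and reads from the 3' end need not show a deletion elsewhere in the gene, so these counts do not check the genotypes. Mitochondrial rRNA took 4.35% to 8.22% of counts in the young controls, 3.0% to 3.51% in the young hets, 1.70% to 2.38% in the old controls and 1.40% to 4.78% in the old hets. Xist was at 616 CPM or more, with Ddx3y at 0, in young control 3, all 3 young hets and old het 1, and at 3.04 CPM or less in the other libraries. The labels do not say whether the libraries of a group came from separate mice, so p-values measure the spread between these libraries, which may be technical.

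The library called old control 1 stood apart, and it bears on every comparison that uses the old controls. It was the deepest library and the highest of all 12 for 20 of the 39 tested members (51.3%), against 16.1% of all tested genes. It lay above both other old controls for 34 of the 39 (87.2%, against 39.9% of all tested genes). The same library held 69.8 CPM of Ly6a, the marker that the sort gated out, against 0 in all 6 young libraries, 1.18 and 0 in the other old controls and 0.809, 0 and 0 in the old hets. A list of 6 stem cell genes (Ly6a, Slamf1, Procr, Hlf, Mecom, Meis1) summed to 909 CPM there and to 38.3 to 94.2 CPM elsewhere. None of the 6 was at 0 there, in old control 2 or in old het 1. A list of 9 MHC class II and dendritic cell genes summed to 832 CPM in old control 1 and to 42.5 to 174 CPM elsewhere. None of the 9 was at 0 in old control 2, and 1 was at 0 in old control 1. Defining markers of other cells were also counted in it, with 10.6 CPM of Siglech and 11.8 of Ccr9 (plasmacytoid dendritic cells) and 11.5 of Cd8a and 5.04 of Cd3e (T cells), which were at 0 to 2.28, 0 to 2.25, 0 to 0.341 and 0 CPM in the young libraries and the old hets. The whole lists for these cells did not set it apart: the 7 plasmacytoid dendritic cell genes summed to 549 CPM in it and to 152 to 548 CPM elsewhere, and the 9 T and NK cell genes to 139 CPM in it and to 22.1 to 148 CPM elsewhere. Ms4a3, a granulocyte-monocyte progenitor gene, was at 343 CPM in it and at 1491 CPM or more elsewhere. The whole list of 8 progenitor genes, Ms4a3 among them, summed to 7679 CPM in it and to 5958 to 15781 CPM elsewhere. The part of these cells in the results was not tested, and the main results from the old controls are also given without this library. In such bulk libraries, fewer cells that express a gene and less RNA of it per cell cannot be told apart.

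Promoters are shown first, for 4 of the 7 members that passed the test between old and young controls. They show where letters matching the ISRE or GAS lie, or are absent, in GTPase and immunoproteasome genes. RefSeq promoter windows of 300 bases (250 before to 50 after each start, build GRCm38.p6) were matched by symbol for 39 of the 52 members. Those with no entry in the table were Oas2, Mx1, Mx2, Dhx58, Rtp4, Zbp1, Ly6e, Parp9, Parp14, Iigp1, Tap2, Nlrc5 and Usp18. The ISRE was searched as GAAANNGAAA and on the other strand as TTTCNNTTTC, and the GAS as TTCNNNGAA, which reads the same on both strands. An ISRE match lay in the windows of 19 of the 39 members (48.7%) and of 3.99% of the 27025 genes in the table. A GAS match lay in 13 members (33.3%) and in 9.55% of genes. The 2 elements overlapped once each in Bst2 and Ifitm3. By role, an ISRE match was found for 6 of 7 GTPases, 10 of 19 effectors, 2 of 5 regulators and 1 of 8 presentation genes (B2m). A match is a description of letters and not a site shown to be bound.

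The stretches run 5′ to 3′ on the strand of the gene and end at the base before its start, with matches in capitals. They show the guanylate-binding protein genes Gbp2 (chr3:142620413-142620662, plus strand) and Gbp7 (chr3:142530086-142530335, plus strand), the immunoproteasome subunit Psmb8 (chr17:34197945-34198194, plus strand), and the whole 225 bases between the start of Psmb9 (chr17:34187331-34187555, minus strand) and that of its neighbour Tap1, which is read the other way.
Gbp2: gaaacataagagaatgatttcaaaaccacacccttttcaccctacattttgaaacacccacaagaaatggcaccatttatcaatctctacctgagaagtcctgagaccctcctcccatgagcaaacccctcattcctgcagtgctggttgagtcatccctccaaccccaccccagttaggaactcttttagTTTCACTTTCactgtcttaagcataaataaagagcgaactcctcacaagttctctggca
Gbp7: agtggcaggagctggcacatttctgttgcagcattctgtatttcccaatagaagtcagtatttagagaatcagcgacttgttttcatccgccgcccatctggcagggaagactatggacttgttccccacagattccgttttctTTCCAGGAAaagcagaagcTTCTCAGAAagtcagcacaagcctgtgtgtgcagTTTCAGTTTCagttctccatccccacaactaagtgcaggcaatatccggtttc
Psmb8: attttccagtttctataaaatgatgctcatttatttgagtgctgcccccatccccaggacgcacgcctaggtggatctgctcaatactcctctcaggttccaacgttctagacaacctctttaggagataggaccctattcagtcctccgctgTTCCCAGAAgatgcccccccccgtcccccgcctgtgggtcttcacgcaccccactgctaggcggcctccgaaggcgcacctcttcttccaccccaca
Psmb9: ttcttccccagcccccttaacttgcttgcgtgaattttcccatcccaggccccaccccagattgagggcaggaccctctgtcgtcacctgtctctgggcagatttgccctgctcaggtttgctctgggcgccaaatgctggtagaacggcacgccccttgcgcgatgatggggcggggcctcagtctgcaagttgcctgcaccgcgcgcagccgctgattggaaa
Counted from the start, Gbp2 has an ISRE match at -59 to -50. Gbp7 has one at -53 to -44 and GAS matches at -106 to -98 and -87 to -79. Psmb8 has a GAS match at -97 to -89. Neither motif occurs in the 300-base windows of Psmb9, Tap1, Ifi47 or Dtx3l, so the members that passed the test include promoters with and without these letters.

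**Figure D1:**
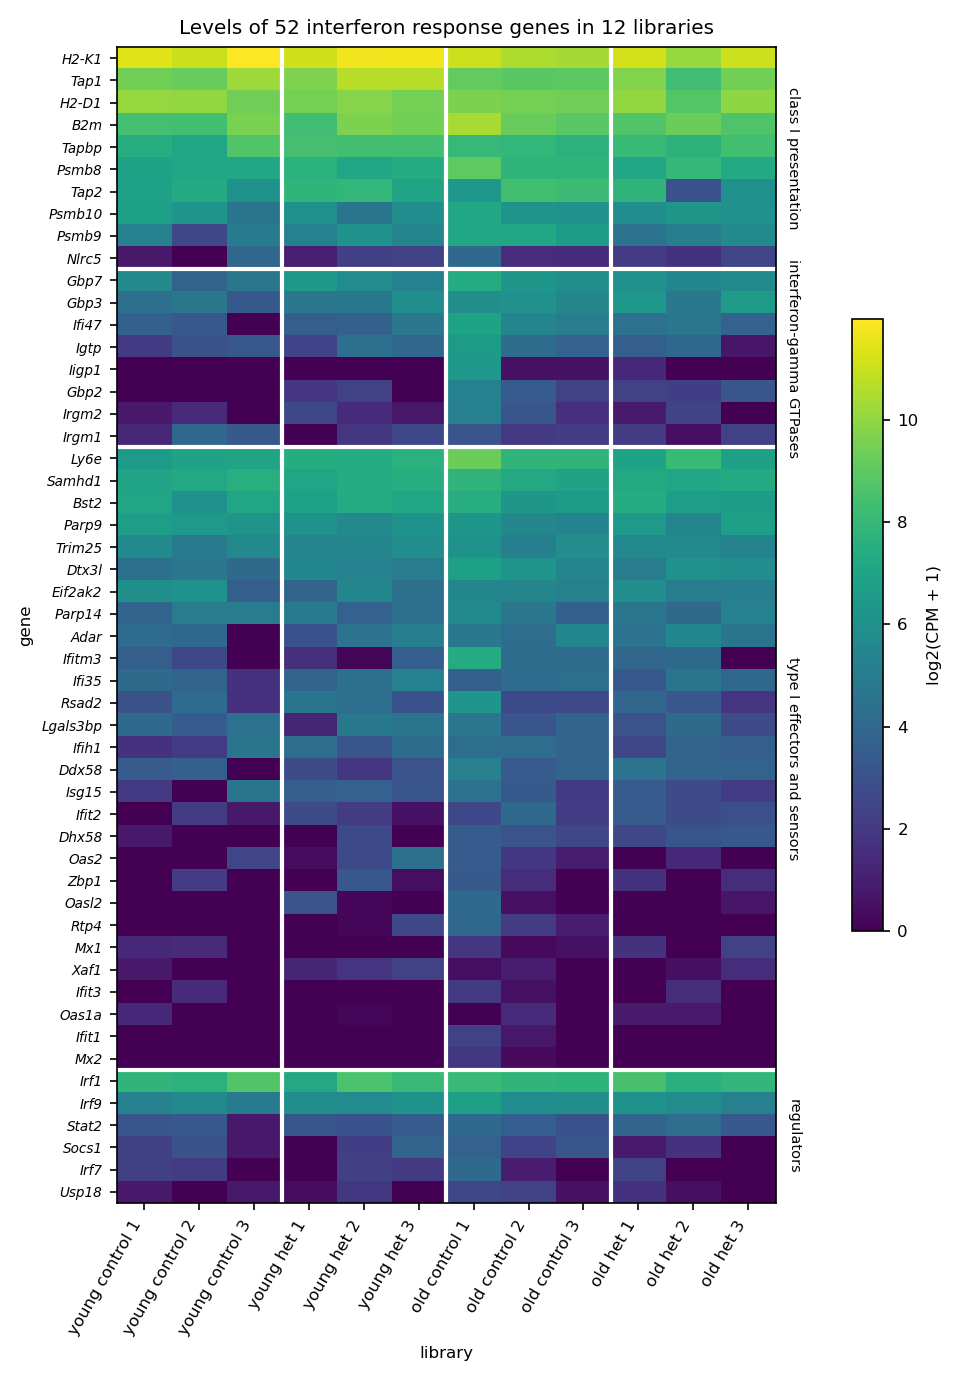
Level of each of the 52 genes (rows, grouped by role and ordered by mean level) in each library (columns, 4 groups of 3), as log2(CPM + 1) on a colour scale. The rows of H2-K1, H2-D1, Tap1 and B2m are bright in all 12 libraries, while rows such as Ifit1, Mx2 and Iigp1 are dark in nearly all libraries but old control 1, the highest library for 30 of the 52 genes.

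Some effectors, GTPases and immunoproteasome genes rose in old controls relative to young controls, and no member passed the test between genotypes at either age. With edgeR's quasi-likelihood test and Benjamini-Hochberg adjustment over 10604 genes, 7 of 39 members passed an adjusted p of 0.05 between old and young controls, all of them higher in the old: Psmb8, Psmb9, Ifi47, Gbp2, Gbp7, Ly6e and Dtx3l. Of all tested genes, 6.98% passed (2.79% higher, 4.19% lower). The log2 change of the 39 members had a median of 1.0, against 0.22 over all tested genes, and 30 of 39 were above 0 (57.9% of all genes). The groups did not overlap, old above young, for 15 members (19% of all genes), and young above old for 1, Tap1 (12.2% of all genes). Between young het and young control no member passed (0.424% of all genes did), between old het and old control none did (0% of all genes), and between old and young het none did (0.00943%).

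The 7 calls depended on which libraries were included. Without old control 1, Psmb9 passed and the other 6 did not (2.89% of all genes passed), and 24 of the 38 members then tested were above 0 (55.6% of all genes), with a median of 0.62 against 0.14 over all genes. Without old control 2, 4 passed (Ifi47, Ly6e, Psmb8, Psmb9). Without old control 3, all 7 did. Without young control 1, 3 passed (Gbp7, Ifi47, Psmb9), without young control 2 only Psmb9 did, and without young control 3 there were 3 (Ifi47, Ly6e, Psmb9). Psmb9 was thus past the threshold under each of the 6 omissions. With the share of mitochondrial rRNA, which does not overlap between the old and the young controls, entered as a covariate, no gene of any kind passed and the Psmb9 change was 1.56 (adjusted p = 0.514).

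**Figure D2:**
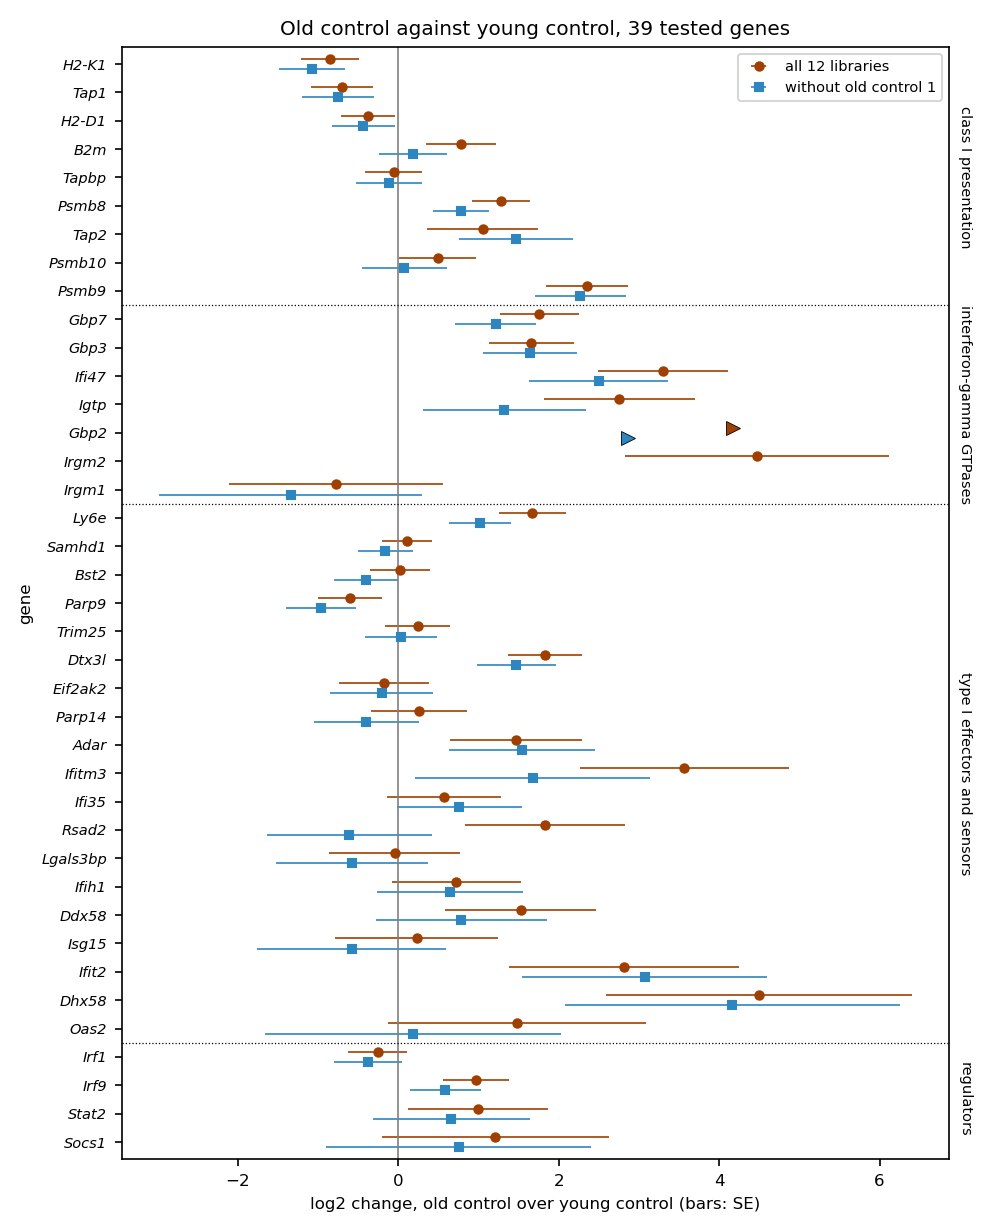
log2 change of each tested gene between old and young controls (horizontal axis, bars are 1 SE), from all 12 libraries (circles) and without old control 1 (squares), with triangles for the lower bounds of Gbp2, which had no count in young controls. Psmb9 stays near 2.3 either way, Rsad2 changes side, and Irgm2 and Dhx58 rest on 2 counts and 1 count in all young controls, with Irgm2 too low to test without old control 1.

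The ligands were all but uncounted. Of 10 interferon genes listed (Ifnb1, Ifna and Ifng among them), 8 had no count in any library, and the 10 together had 11 counts in 4 libraries. Of 11 receptor and kinase genes, 10 were tested. None passed in any comparison, and between old and young controls all 10 were above 0 with a median of 0.32, close to the 0.22 of all genes. Ifngr1, a chain of the interferon-gamma receptor, ranged from 270.3 to 747 CPM in young controls, 942 to 1610.1 in young hets, 289 to 892 in old controls and 801 to 1354 in old hets. Ifngr1 was chosen for its role after its values were seen.

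Among the 6 regulators, none passed in any comparison. Irf1, a transcription factor that interferon-gamma induces and that acts on class I genes, was the most counted, at 229, 206 and 418 CPM in young controls, 147, 383 and 263 in young hets, 278, 225 and 212 in old controls and 357, 192 and 236 in old hets. The 4 groups overlapped. Irf9, the DNA-binding part of the complex that recognises the ISRE, was at 36.4, 52.7 and 29 CPM in young controls and 112, 55.9 and 60.1 in old controls, a log2 difference of 0.97 (SE 0.42, adjusted p = 0.162) that was 0.59 without old control 1. Every old control was above every young control, and the young hets (58.1, 52.9 and 67.8 CPM) were above the young controls as well, with a log2 difference of 0.62 (SE 0.41, adjusted p = 0.535). The old hets were at 68.7, 53.3 and 36.1 CPM. Stat2, the partner of Irf9, lay within 0.764 to 18.4 CPM. Socs1, an inhibitor of the Jak kinases, was at 12.7, 4.24 and 7.96 CPM in old controls and 0.809, 2.4 and 0 in old hets, groups that did not overlap, with a log2 difference of -2.81 (SE 1.48, adjusted p = 0.999) that rests on 7 counts in the old hets. Irf7, which amplifies type I interferon production, was too low to test: 175 of its 234 counts were in old control 1. Usp18, which removes Isg15 and dampens the receptor, had 53 of 97 counts there.

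The 28 type I effectors and sensors ranged from genes counted in all 12 libraries, such as Samhd1, Ly6e and Bst2, to genes with no count in most of them, such as Ifit1 and Mx2. Their summed level was 689, 658 and 708 CPM in young controls, 717, 823 and 888 in young hets, 1817, 817 and 765 in old controls and 822, 885 and 744 in old hets. Apart from old control 1, every library lay between 658 and 888 CPM. Old control 1 was above all of them. The highest young control, at 708 CPM, was below every library of the other groups, the lowest of which was at 717 CPM.

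Ly6e and Dtx3l rose in old controls. Ly6e, a cell-surface protein anchored by a lipid, was at 90.4, 117 and 127 CPM in young controls, 171, 166 and 196 in young hets, 616, 225 and 223 in old controls and 120.5, 272 and 109.7 in old hets. The lowest old control was above the highest young control, and the log2 change was 1.67 (SE 0.42, adjusted p = 0.0206), or 1.02 (SE 0.39, adjusted p = 0.175) without old control 1. Dtx3l, a ubiquitin ligase that pairs with Parp9, was at 20.5, 25.5 and 16.8 CPM in young controls, 47.7, 38.7 and 32.9 in young hets, 106, 71.7 and 42 in old controls and 31.5, 70.5 and 57.8 in old hets. Its old controls were also all above the young controls, with a log2 change of 1.83 (SE 0.46, adjusted p = 0.0214), and 1.47 (SE 0.49, adjusted p = 0.119) without old control 1. Parp9, whose gene lies beside that of Dtx3l, had a log2 difference of -0.60 (SE 0.40, adjusted p = 0.389) in the other direction, at 98.7, 85 and 72.6 CPM in young and 81, 45.5 and 41.6 in old controls. Whether strand was used in the counting is not known, and reads of overlapping neighbours could be shared.

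The remaining effectors did not pass. Samhd1, which breaks down nucleotides needed by viruses, was at 127 to 183 CPM in young and 119.8 to 221 in old controls, a log2 difference of 0.11 (SE 0.32). Bst2, which tethers budding viruses to the cell, was at 66.3 to 136 and 80.4 to 174 CPM, a difference of 0.02 (SE 0.38). Ifitm3, which blocks viral entry, was at 11.4, 5.1 and 0 CPM in young controls and 162, 17.7 and 17.7 in old controls. Its log2 difference of 3.57 (SE 1.30, adjusted p = 0.1) became 1.68 without old control 1. Rsad2, an antiviral enzyme also called viperin, was at 6.83, 17 and 2.29 CPM in young and 75, 5.42 and 5.31 CPM in old controls, and its difference went from 1.83 to -0.61 without that library. The RNA sensors Ddx58 and Ifih1 had differences of 1.53 (SE 0.94) and 0.73 (SE 0.81), or 0.79 and 0.65 without it, and the third sensor, Dhx58, had 1 count in all young controls together and 113, 31 and 11 in old controls (adjusted p = 0.16). The differences of the RNA kinase Eif2ak2, the RNA editor Adar, the ubiquitin ligase Trim25, the RNA-binding Ifit2, Ifi35, Lgals3bp, Parp14 and Oas2 ran from -0.17 (Eif2ak2) to 2.81 (Ifit2), with Ifit2 resting on 0, 2 and 1 counts in young controls, and from -0.58 (Lgals3bp) to 3.07 (Ifit2) without old control 1. Isg15, the ubiquitin-like protein that is among the most strongly interferon-induced genes in most cells, stayed at 0 to 24.5 CPM. When old control 1 was left out, the differences of Samhd1, Bst2, Isg15 and Parp14 were below 0, at -0.16, -0.40, -0.58 and -0.40, and 11 of 19 tested effectors were above 0 (55.6% of all genes), against 16 of 19 with it (57.9% of all genes).

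The 9 effectors that were too low to test were Ifit1, Ifit3, Oas1a, Oasl2, Mx1, Mx2, Rtp4, Xaf1 and Zbp1. Of all 13 members too low to test, 9 had more than 60% of their raw counts in old control 1. No other library had more than 6794892 counts in total, against 9645502 in old control 1, so raw shares lean to that library. Oasl2, of the oligoadenylate synthetase family, had 178 of 204 counts there, Rtp4 165 of 212, Ifit1 44 of 47, Ifit3 34 of 42 and Mx2 31 of 32. Below that share were Zbp1, a sensor of nucleic acid, with 99 of 173, and the regulator Usp18. Xaf1 (4 of 57) and Oas1a (0 of 13) did not follow this pattern. Mx1, the gene whose promoter drives Cre in Mx1-Cre mice, had 30 of 44 counts in old control 1 and 3, 0 and 6 counts in the old hets. Its level was 2.75 CPM in old control 1, and its highest level in CPM was in old het 3. The members in this and the previous paragraphs that lie outside the naming rule given with the processing were chosen after their values were seen.

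**Figure D3:**
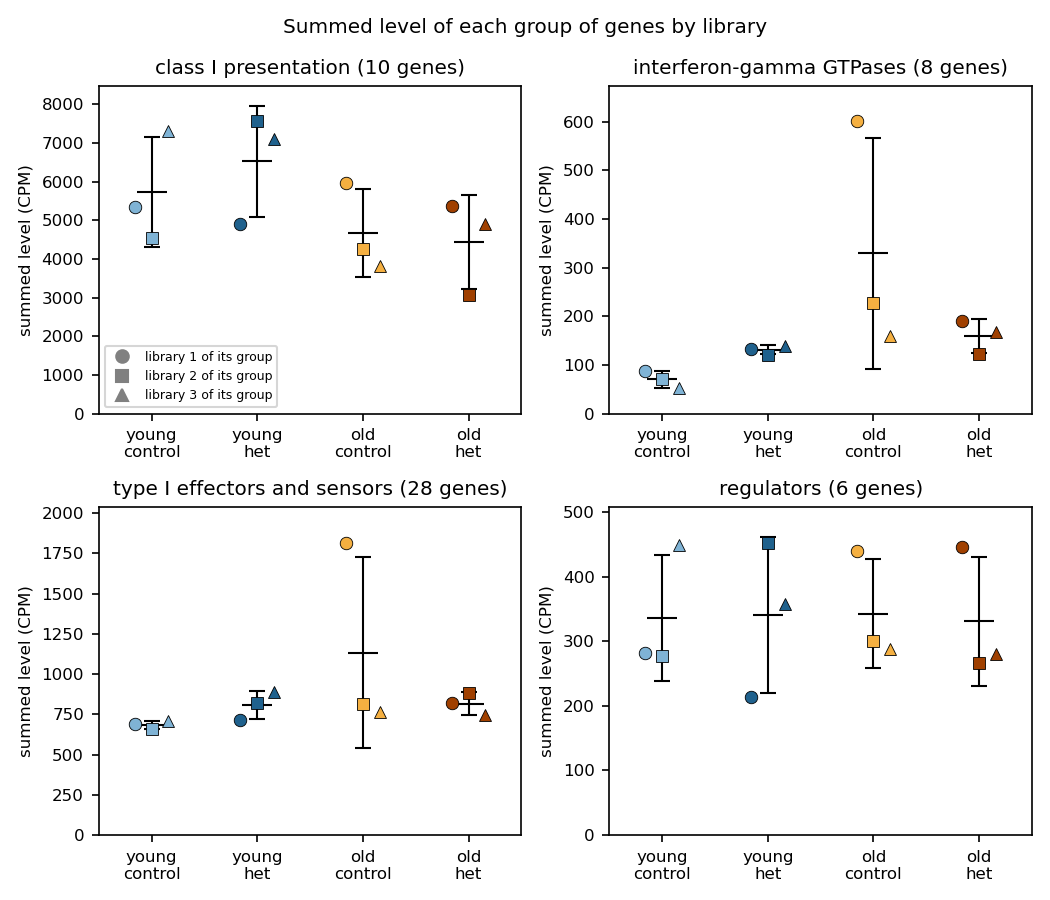
Summed level in CPM (vertical axes, from 0) of the genes of each role in every library, 4 groups on the horizontal axis, symbols for the libraries of a group, bars for mean and SD. Old control 1 (circle) is at 601 CPM for the GTPases and 1817 CPM for the effectors, far above the other old controls, whereas for class I presentation the 4 groups overlap.

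The interferon-gamma GTPases had their lowest summed level in young controls, and Ifi47, Gbp2 and Gbp7 rose in old controls. Their summed level was 86.6, 71.4 and 52.7 CPM in young controls, 132, 121 and 139.8 in young hets, 601, 228 and 160.1 in old controls and 191, 121 and 167 in old hets. The highest young control was below all 9 other libraries, as it also was for the effectors. Between old and young controls, 6 of the 7 tested GTPases were above 0 (57.9% of all genes), with a median log2 change of 2.76. Of these, 3 were past the threshold (6.98% of all genes, 2.79% higher). Without old control 1, none of the 6 then tested passed (2.89% of all genes), 5 were above 0 (55.6% of all genes) and the median was 1.48. These proteins attack the vacuoles in which intracellular microbes live, and the genes are near-identical in part, so that counts may be split between copies.

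Ifi47 was at 12.1, 8.5 and 0 CPM in young controls, 11.4, 11.9 and 25.6 in young hets, 122, 43.1 and 33.2 in old controls and 21, 25.3 and 12.5 in old hets. Every old control was above every library of the other 3 groups, and the log2 change over young controls was 3.30 (SE 0.81, adjusted p = 0.0185), or 2.5 (SE 0.87, adjusted p = 0.13) without old control 1. Gbp2 had no count in any young control, 8, 28 and 0 counts in young hets, 402, 41 and 9 in old controls and 5, 9 and 12 in old hets. Its mean level in old controls was at least 18.02-fold higher than in young controls, where the floor is 3 counts over the group (adjusted p = 0.0335). Without old control 1 that bound was 7.31-fold (adjusted p = 0.162). Gbp7, whose promoter holds matches to both elements, was at 48.6, 13.6 and 26 CPM in young controls, 82.7, 54.2 and 37 in young hets, 166, 79.7 and 59.7 in old controls and 66.3, 44.5 and 49.9 in old hets. Its log2 change was 1.76 (SE 0.49, adjusted p = 0.0369), and 1.21 (SE 0.51, adjusted p = 0.219) without old control 1.

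Gbp3 missed the threshold with a value that was nearly the same without old control 1. It was at 20.5, 25.5 and 9.17 CPM in young controls, 25.5, 27.3 and 57.1 in young hets, 58.6, 66.2 and 44.7 in old controls and 82.5, 28.1 and 92.6 in old hets. Its log2 difference between old and young controls was 1.66 (SE 0.53, adjusted p = 0.0631), and 1.64 (SE 0.59, adjusted p = 0.146) without old control 1. Igtp, of the immunity-related GTPase family, was at 3.04, 6.8 and 8.41 CPM in young and 91.6, 17.7 and 12.4 in old controls, a difference of 2.76 (SE 0.94, adjusted p = 0.081) that was 1.32 without old control 1. Irgm2, of the same family, had 2 counts in all young controls together and 400, 35 and 5 in old controls. Irgm1 was the 1 tested GTPase below 0, at 1.52, 15.3 and 9.17 CPM in young and 7.97, 3.06 and 3.54 in old controls, with a difference of -0.78 (SE 1.33) that was -1.34 without old control 1. Iigp1 was counted almost only in old control 1, with 893 of its 898 counts there and none in any young library.

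**Figure D4:**
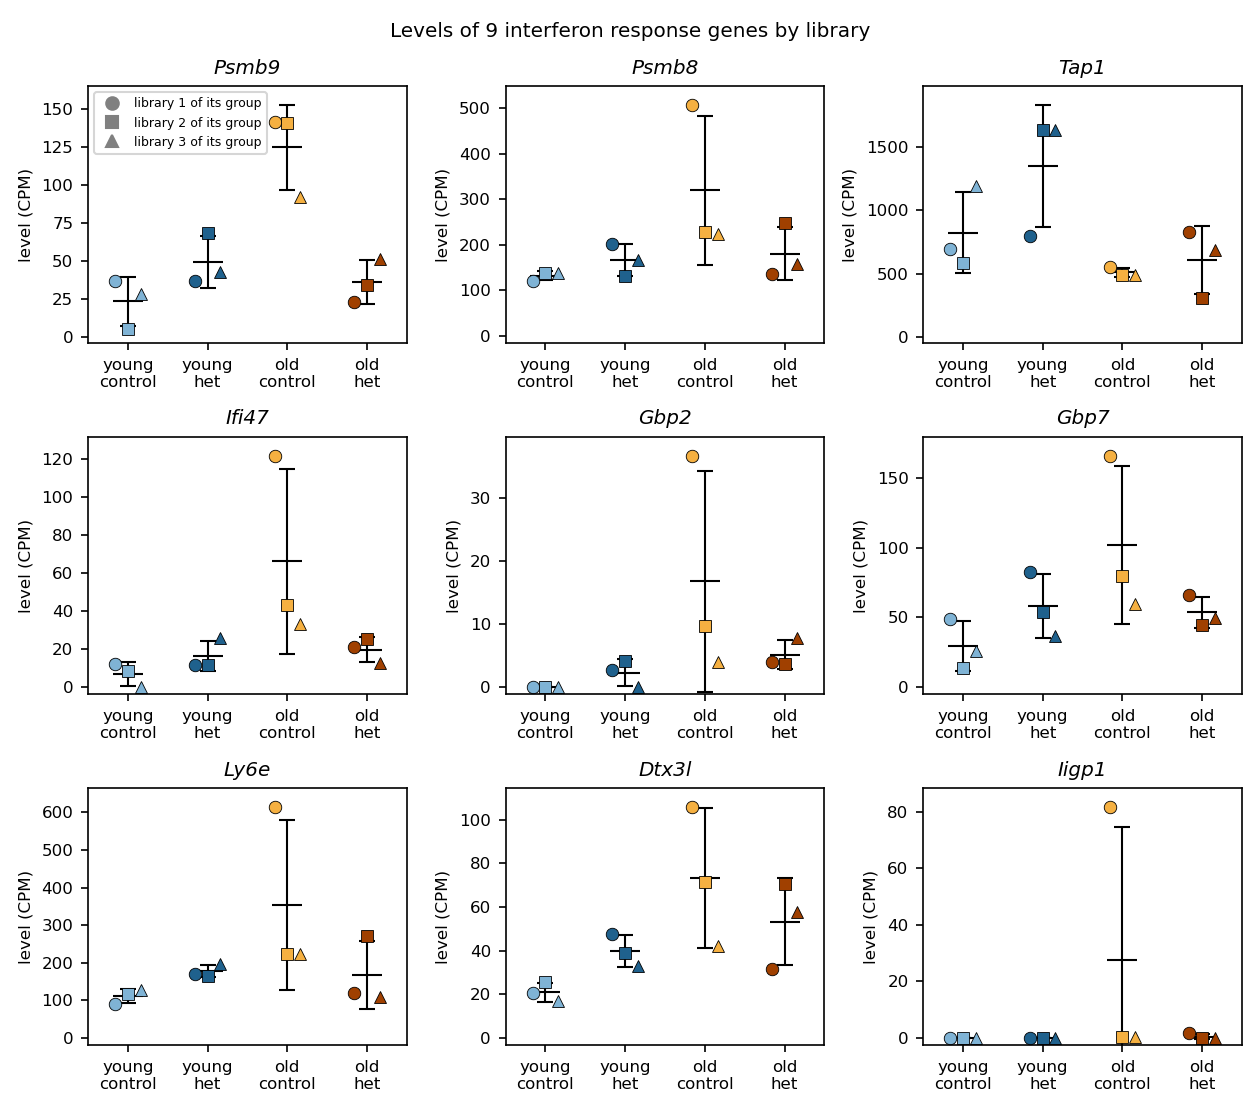
Level in CPM (vertical axes, linear) of 9 genes in every library, with the 4 groups on the horizontal axes, symbols for the libraries of a group, and bars for mean and SD. All 3 old controls are high for Psmb9, old control 1 is far above the rest for Psmb8, Gbp2 and Ly6e, Iigp1 is near 0 outside that library, and Tap1 is highest in young hets.

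The immunoproteasome and class I presentation genes did not share one direction. Their summed level was 5338, 4537 and 7312 CPM in young controls, 4898, 7566 and 7108 in young hets, 5962, 4259.9 and 3807 in old controls and 5368, 3074 and 4894 in old hets, and all groups overlapped. Of the 9 tested between old and young controls, 5 were above 0 (57.9% of all genes) and 4 below, with a median log2 change of 0.49, or 0.077 without old control 1. The immunoproteasome subunits Psmb8 and Psmb9 rose. H2-K1, H2-D1 and Tap1 had values below 0 and did not pass.

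Psmb9 replaces a catalytic subunit of the ordinary proteasome and changes which peptides it cuts. It was at 36.4, 5.1 and 28.3 CPM in young controls, 36.6, 68.6 and 42.6 in young hets, 142, 141 and 92.4 in old controls and 22.6, 34.1 and 51.2 in old hets. All 3 old controls were above all 9 other libraries, and old control 1 did not stand out from old control 2. The log2 change over young controls was 2.36 (SE 0.51, adjusted p = 0.00893), it was 2.27 (SE 0.57, adjusted p = 0.0363) without old control 1, and it ranged from 1.86 to 2.72 over the 6 omissions. Psmb8, another such catalytic subunit, was at 121, 138 and 138 CPM in young controls, 201, 131 and 166 in young hets, 508, 227 and 224 in old controls and 137, 247 and 159 in old hets. The groups of controls did not overlap, with a log2 change of 1.28 (SE 0.36, adjusted p = 0.0386), but 0.78 (SE 0.35, adjusted p = 0.254) without old control 1. The third subunit, Psmb10, was at 106, 74.8 and 24.5 CPM in young and 144, 72.1 and 70.8 in old controls, overlapping, with a difference of 0.49 (SE 0.48) that was 0.0765 without old control 1. None of 14 tested genes of the constitutive proteasome passed in that comparison, and their median log2 difference was 0.23.

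The presenting molecules themselves, with Tap1, had the highest mean levels of all members. H2-K1, a class I heavy chain, was at 2667, 2065 and 4008 CPM in young controls, 2204, 3479 and 3377 in young hets, 2109, 1460.3 and 1292 in old controls and 2370.3, 1127 and 2155 in old hets, with a difference of -0.85 (SE 0.36, adjusted p = 0.165) between old and young controls. H2-D1, the other heavy chain, was at 1087, 1049 and 673 CPM in young and 783, 717 and 662 in old controls, a difference of -0.38 (SE 0.34). The heavy-chain genes are near-identical in places and their counts may be split. B2m, the light chain of every class I molecule, was at 337, 326 and 743 CPM in young and 1369, 581 and 478 in old controls, a difference of 0.79 (SE 0.43, adjusted p = 0.287) that was 0.18 without old control 1. Tapbp, which holds the empty class I molecule at the transporter, was at 175, 136 and 423 CPM in young and 258, 246 and 206 CPM in old controls. Tap2, a subunit of the peptide transporter, varied within groups, at 83.5, 327 and 291 CPM in old controls and 217, 7.21 and 62.4 in old hets. Nlrc5, the activator of class I genes, was too low to test, with 177 of 277 counts in old control 1.

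Tap1, the partner of Tap2, starts 225 bases from Psmb9 and was at 695, 585 and 1191 CPM in young controls, 793, 1629.8 and 1629.6 in young hets, 550.1, 487 and 489.5 in old controls and 827, 309.8 and 689 in old hets. Unlike Psmb9, it was lower in all 3 old controls than in any young control, with a log2 difference of -0.70 (SE 0.39, adjusted p = 0.291). Within a library, the number of Tap1 counts per Psmb9 count was 3.89, 3.45 and 5.30 in old controls and 36.5, 9.09 and 13.4 in old hets. It was 19.1, 115 and 42.1 in young controls, of which young control 2 rests on 3 Psmb9 counts, and 21.6, 23.8 and 38.2 in young hets. The old controls were below all 9 other libraries. The log2 of this ratio differed by -3.45 between old and young controls and by 1.99 between old hets and old controls. This pair was chosen after its values were seen, so these are given as a description. An exact permutation test with 3 libraries a group cannot give a p under 0.1, so it cannot decide whether the ratios differ.

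Young hets had no member past the threshold against young controls. The median log2 difference of the 39 members was 0.58, against 0.08 over all tested genes, and 30 were above 0 (54.2% of all genes). By role the medians were 1.09 for GTPases, 0.60 for regulators, 0.34 for presentation genes and 0.30 for effectors. For 5 members (Ly6e, Dtx3l, Gbp3, Psmb9 and Irf9) every young het was above every young control (9.72% of all genes), and for Parp9 every one was below (7.12%). For Gbp3 and Irf9 the gap was smaller than the 1.70 CPM that 1 count was worth in young control 2. For Psmb9 it was smaller than the 0.759 CPM of 1 count in young control 1. Gbp2, with no count in the young controls, had the only unadjusted p under 0.05 (0.0367, adjusted 0.317), a share of 1 in 39 against 14% of all genes, and its level was at least 2.46-fold higher. Log2 differences of the others that the test ranked first were 0.94 (SE 0.46) for Dtx3l, 1.02 (SE 0.50) for Psmb9, 1.04 (SE 0.53) for Gbp3, 0.93 (SE 0.49) for Gbp7 and 0.71 (SE 0.39) for Tap1. Those of Ifi47, Tap2, Tapbp, Ly6e and Ifi35, a scaffold protein of the response, were 1.28, 0.81, 0.42, 0.68 and 1.16, and that of Eif2ak2, the kinase that halts translation on sensing viral RNA, was -0.83 (SE 0.56). All 3 young hets and 1 of 3 young controls were Xist-high, and the young hets had less mitochondrial rRNA than any young control, so these features moved with genotype. Fitted with the share of mitochondrial rRNA as covariate, the median of members was 0.16, against 0.059 over all genes, and that of effectors was 0.026. With Xist as a covariate it was 0.27, against 0.18 over all genes, and that of effectors was 0.18. The medians of the GTPases were 0.77 and 1.13 in these fits, and no member passed in either.

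Old hets had no member past the threshold against old controls either, and no gene of any kind passed there. With edgeR, 7 members had an unadjusted p under 0.05, all 7 lower in hets, as had 3.58% of all genes (194 lower and 186 higher, of 10604). DESeq2 and limma-voom also called no member. The median log2 difference of members was -0.48, against -0.05 over all genes, and 28 of 39 were below 0 (53.2% of all genes). Psmb9 had a difference of -1.79 (SE 0.49, unadjusted p = 0.00158, adjusted p = 0.999), and every old het was below every old control. Ifi47 was at -1.75 (SE 0.72, unadjusted p = 0.0236, adjusted p = 0.999), also without overlap. Ly6e was at -1.08 (SE 0.41, unadjusted p = 0.0155, adjusted p = 0.999), with old het 2 above 2 of the old controls. The others were Psmb8 at -0.82, Igtp at -2.15, Irgm2 at -3.06 and Ifitm3 at -2.64. Ifitm3, Socs1 and Ifih1 had old hets entirely below old controls, which makes 5 such members with Psmb9 and Ifi47 (5.99% of all genes).

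Without old control 1 most of these differences were smaller. The median of members was then -0.08 against 0.01 over all genes, with 22 of 38 below 0 (49.5% of all genes). Psmb9 kept most of its size at -1.70, while Ifi47 was at -0.96, Ly6e at -0.41, Psmb8 at -0.31, Igtp at -0.72 and Ifitm3 at -0.75. Rsad2 changed sign, from -1.77 to 0.65. Tap2, at -1.31 with all libraries, was at -1.72 without it, with old het 2 alone at 7.21 CPM. B2m was at -0.75 and then -0.14, Gbp7 at -0.94 and then -0.39, and Oas2 at -2.83 and then -1.52.

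**Figure D5:**
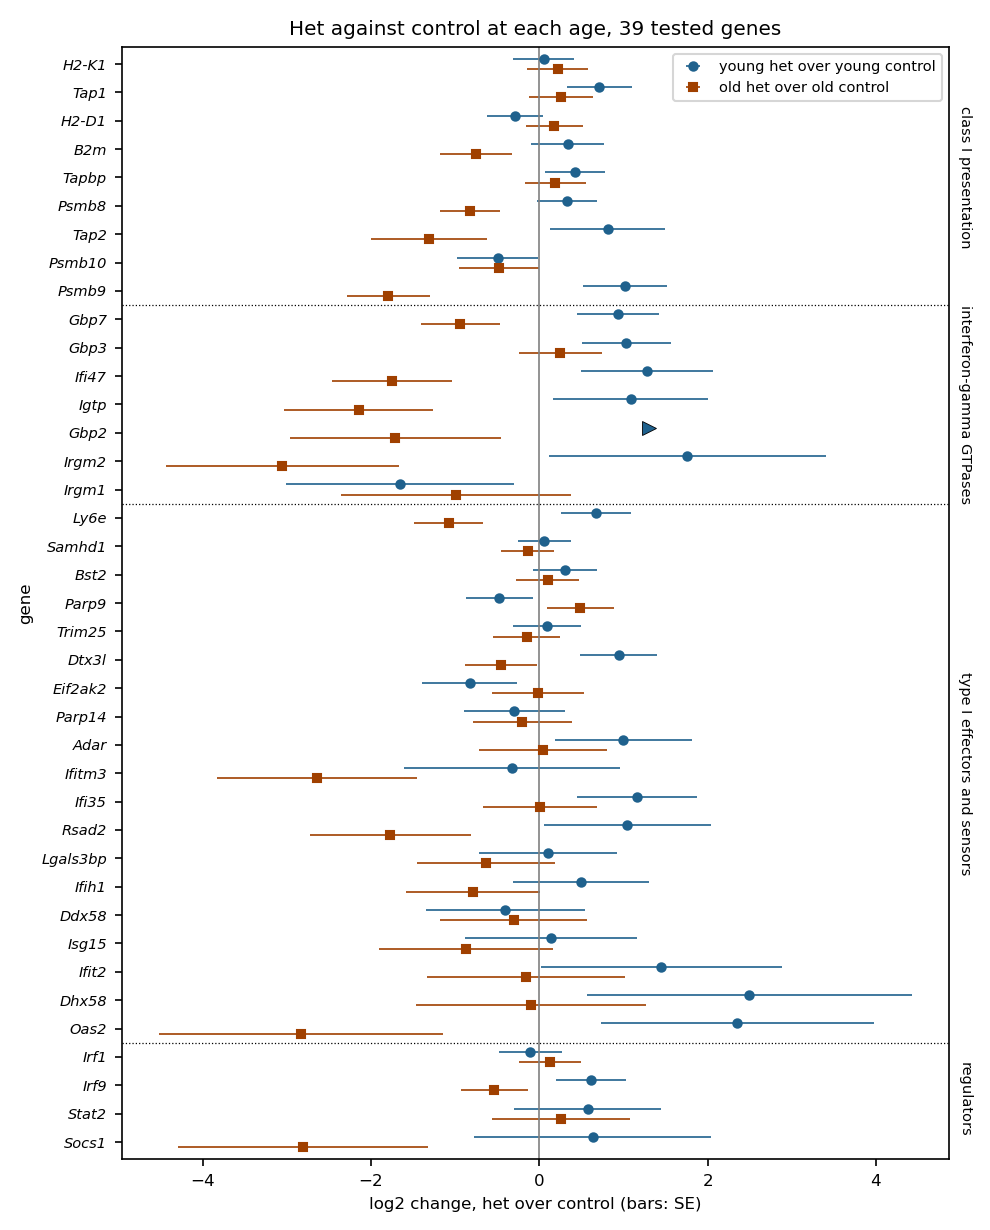
log2 difference of each tested gene between het and control (horizontal axis, bars are 1 SE), in young mice (circles) and old mice (squares), with a triangle for the lower bound of Gbp2 in young mice. Points for Psmb9, Ifi47, Gbp7 and Ly6e lie right of 0 in young and left of 0 in old mice, and none of these values passed the test.

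The het difference in old mice was set against that in young mice with an interaction term, and no member passed (0.0849% of all genes did). The median of this difference of differences was -1.09 over members and -0.18 over all genes, and 30 of 39 were below 0 (56.6% of all genes). An unadjusted p under 0.05 was reached by 11 members, all of them lower, and by 12.8% of all genes (660 lower and 696 higher, of 10604). Psmb9 was at -2.81 (SE 0.70, adjusted p = 0.1), Ly6e at -1.75 (SE 0.58, adjusted p = 0.201) and Ifi47 at -3.03 (SE 1.06, adjusted p = 0.219). Also among the 11 were Gbp7 at -1.87, Igtp at -3.23, Dtx3l at -1.40, Psmb8 at -1.15, Tap2 at -2.12 and Oas2 at -5.19. Irgm2 at -4.82 and Gbp2 at -7.72 completed them, with no count of Gbp2 in the young controls. B2m at -1.09 and Rsad2 at -2.82 were not among them (unadjusted p = 0.0891 and 0.0534 in the edgeR test). Without old control 1 the median of members was -0.45, Psmb9 was at -2.72, Ly6e at -1.09, Ifi47 at -2.23, Igtp at -1.80, Psmb8 at -0.65, B2m at -0.48 and Rsad2 at -0.37. DESeq2 called Psmb9 here, edgeR with no filter on low counts called Psmb9 and Tap2, and without old het 2 edgeR called Ly6e. Each het comparison shares its control libraries with the comparison of old and young controls, so a control library that is high for a gene enters both.

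No member passed the threshold between old and young hets. The median log2 difference was -0.09, against 0.01 over all genes, and 16 of 39 were above 0 (50.6% of all genes). The smallest p-values were those of Tap1, at -1.15 (SE 0.39, unadjusted p = 0.00753, adjusted p = 0.675), and Oas2, at -3.71 (SE 1.72, unadjusted p = 0.0433, adjusted p = 0.773), the only 2 members with an unadjusted p under 0.05 (6.28% of all genes). H2-K1 was at -0.68 (SE 0.36), Tap2 at -1.07 (SE 0.69), Psmb10 at 0.50 (SE 0.48), Gbp3 at 0.87 (SE 0.50), Ddx58 at 1.63 (SE 0.90) and Eif2ak2 at 0.64 (SE 0.55). Only Ddx58 had groups that did not overlap, with old hets at 22.6, 13.2 and 13.1 CPM and young hets at 5.71, 2.7 and 7.33 (14% of all genes did not overlap). Of the members that rose between young and old controls, Psmb9 was at -0.45 (SE 0.48), Ifi47 at 0.27 (SE 0.71), Ly6e at -0.08 (SE 0.40), Gbp7 at -0.11 (SE 0.47), Psmb8 at 0.13 (SE 0.35), Gbp2 at 1.16 (SE 1.26) and Dtx3l at 0.43 (SE 0.43) between the hets.

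Other lists were read in the same comparison of old and young controls, where 6.98% of all tested genes passed (2.79% higher, 4.19% lower). Of 19 tested genes from a list of 35 further interferon-induced genes, 1 rose and 1 fell: Irf8, a transcription factor of monocyte and dendritic cell development, rose by 1.25 (SE 0.38, adjusted p = 0.0492), at 159 to 339 CPM in young and 531 to 716 CPM in old controls, and Parp10, an ADP-ribosyltransferase, changed by -2.01 (SE 0.57, adjusted p = 0.0389). Of 6 tested inhibitors and feedback genes, Pias1, an inhibitor of cytokine signalling, fell, at -1.98 (SE 0.44, adjusted p = 0.00992). None of 12 partners of class I presentation passed. Among cell type markers, 4 of 7 tested class II and dendritic cell genes rose, among them H2-Aa at 4.39 (SE 1.18), H2-Ab1 at 3.87 (SE 1.04) and H2-DMb1 at 1.94 (SE 0.48). So did 2 of 3 tested stem cell genes, Hlf, at 3.33 (SE 0.78), and Meis1, at 2.17 (SE 0.64). Of 8 tested progenitor genes only Prtn3 passed, at 2.23 (SE 0.47), and 2 of the 8 were below 0. The class II list summed to 66.8, 42.5 and 61.1 CPM in young controls and 832, 143 and 156 in old controls. The B cell precursor genes Pax5, Ebf1 and Vpreb1 fell, at -4.27, -3.37 and -2.43, while 2 of the 5 tested B lymphoid genes were above 0. Of 7 tested neutrophil genes only Camp passed, at -2.84, and 3 of the 7 were above 0. Of 7 tested monocyte and macrophage genes only F13a1 passed, at -1.69, and 4 of the 7 were above 0. The B lymphoid list summed to 241, 159.8 and 235 CPM in young and 48.5, 24.3 and 43.8 in old controls, with Cd79a at 0 in both groups. Of the genes named here, Pias1, Prtn3, Pax5, Ebf1, Vpreb1 and Camp also passed without old control 1. Those that then missed the threshold were Irf8 at 1.34, Parp10 at -2.08, H2-DMb1 at 1.70, F13a1 at -1.31, H2-Aa at 2.34, H2-Ab1 at 1.82, Hlf at 1.57 and Meis1 at 0.23. The stem cell list summed to 55.4, 62.9 and 52 CPM in young and 909, 90.8 and 80 CPM in old controls. The part of these marker lists in the results for the 52 genes was not tested.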

How the data were processed

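Deposited values are raw read counts per gene symbol for 12 libraries. Per the submitters' processing notes the tools were STAR 2.4, HTSeq 0.6.1 and DESeq2 with build mm9, and a Lexogen 3' kit was used per the labels' protocols. The sources used here do not state the counting mode, strand setting or annotation. From the counts, genes were filtered (edgeR 4.0.16 filterByExpr, minimum count 10, minimum total 15, leaving 10604 genes), scaled by TMM and fitted in 1 quasi-likelihood model of 4 groups (R 4.3.3), with Benjamini-Hochberg adjustment over all tested genes and a threshold of 0.05. The SE is the log2 change divided by the square root of F. The script was tested on simulated counts. Members, lists and comparisons were chosen with earlier results of these data known. Named genes are those past the threshold, the 4 with the smallest p per role and comparison, the 4 with the highest mean CPM per role, called genes of other lists (at most 3 a list) and Wt1. Of 167 genes in those other lists, 161 were in the table, and 1 of them enters the counts of its lists without values of its own being reported here. Alternatives were DESeq2 1.42.0, limma-voom 3.58.1, DESeq2 size factors, no filter, the compared groups alone, the mitochondrial rRNA share or Xist as a covariate, and omission of libraries. Depth was 645460 to 9645502 counts, and 3 counts, the floor for a group at 0, were worth 0.275 to 5.10 CPM in 1 library. Floors cover counting error only. Promoter sequences are from RefSeq (GRCm38.p6), and no coordinate was converted to mm9.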

Additional observations from a re-analysis of the deposited data

How the results depend on the processing

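No paired analysis was possible because the groups share no sample number in the labels. The count of 7 members between old and young controls was 1 with limma-voom (Psmb9), 11 without the filter on low counts, 0 with the mitochondrial rRNA covariate, 2 with the Xist covariate (Ifi47, Psmb9), 1 without both old control 1 and young control 3, and 3 in a fit of the compared groups alone (Dtx3l, Ly6e, Psmb9). It was 10 with DESeq2 and 7 with DESeq2 size factors, each including the same 7 genes, and 1 to 7 with 1 library left out. The count of all genes called was 740 and became 1321 with DESeq2, 315 without old control 1 and 0 with the mitochondrial rRNA covariate. For the het effect in old minus in young, the count of 0 became 1 with DESeq2 (Psmb9), 2 without the filter (Psmb9, Tap2) and 0 to 1 with 1 library left out. For the other 3 comparisons it was 0 under every alternative run. Some signs turned, and the cause was not tested. Between young het and control, Socs1 was -0.0635 with limma-voom, Tap2 -0.12 with Xist, and Irf1 0.29 without old control 1 and young control 3. Between old het and control, Irf1 was -0.12 with Xist and Rsad2 0.65 without those 2 libraries, which also gave 0.10 (Rsad2), -0.033 (Irf1) and 0.58 (Stat2) for the het effect in old minus in young, where Oas2 was 0.27 with mitochondrial rRNA. Between old and young controls, B2m was -0.16 with mitochondrial rRNA, and Irf1 was 0.17 with Xist and 0.013 without those 2 libraries. Between old and young hets, Irf1 was 0.031 with mitochondrial rRNA and 0.63 with Xist, which also gave Ifi47 -0.39, Psmb10 -0.25 and Stat2 -0.021. With 1 library left out, signs turned within these ranges: Irf1 -0.47 to 0.29 and Socs1 -0.97 to 1.25 (young het), Rsad2 -2.32 to 0.65, Irf1 -0.13 to 0.31 and Stat2 -0.037 to 0.60 (old het), Stat2 -0.76 to 0.27 and Irf1 -0.12 to 0.60 (old minus young), Irf1 -0.53 to 0.078 (controls), and Irf1 -0.34 to 0.35, Igtp -1.13 to 0.028 and Irf9 -0.45 to 0.0078 (hets). DESeq2 size factors moved the median of all genes between old and young controls from 0.22 to 0.15 and that of members from 1.0 to 0.94. Depth limits the young controls most, where 1 count in young control 2 was worth 1.70 CPM, and genes near that level cannot be ranked there.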
